A study of Homo sapiens with 4 samples.

Results

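The transcripts described are those of 10 genes of the Hippo pathway, its effectors and the genes used to read its activity: CYR61, CTGF, ANKRD1, AMOTL2, LATS2, YAP1, WWTR1, TEAD1, TEAD4 and WTIP. They were taken by gene symbol from 25343 listed symbols, and all 10 were found in each of the 4 libraries. The genes were selected on their roles together with their knockdown and control TPM in these libraries (CYR61 and ANKRD1 higher, CTGF lower), so those values are given as a description and without a test. The libraries came from Huh7 and PLC/PRF/5, established human hepatocellular carcinoma lines grown in DMEM-HG with FBS and PS, and the study asked which genes differ when SCD1 (gene symbol SCD) is depleted. The 4 groups were Huh7 shSCD1, Huh7 NTC, PLC/PRF/5 shSCD1 and PLC/PRF/5 NTC, with 1 library in each. All cells, controls included, had been transduced with a lentivirus and selected with puromycin. The knockdown arm of both lines carried the same single hairpin against SCD1 and the control arm a non-target hairpin, which the labels also call a vector control, and the labels do not say whether the cells were clones or pools.

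In the Hippo pathway the kinases STK3 and STK4 activate LATS1 and LATS2, which phosphorylate the coactivators YAP (gene YAP1) and TAZ (gene WWTR1) and hold them in the cytoplasm. Unphosphorylated YAP and TAZ enter the nucleus, bind the DNA-binding factors TEAD1 to TEAD4 and switch on targets such as CYR61, CTGF and ANKRD1. In mouse liver this pathway restrains organ size, and active YAP drives liver overgrowth and tumours there. LATS2 and AMOTL2 are themselves targets of YAP and also inhibit it. YAP and TAZ are controlled largely by phosphorylation and location, which transcript levels do not measure.

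The stretches of 250 bases before the transcript start of 4 of these genes are shown, and hold the 6-base core that TEAD factors recognise. That of YAP1, which holds 1 copy, is not shown. The stretches were taken from RefSeq on GRCh38.p14, a later build than the hg19 of the authors' processing. Capitals mark GGAATG or, on the other strand, CATTCC. CTGF stood on the minus strand at chr6:131951373-131951622, ANKRD1 on the minus strand at chr10:90921088-90921337, WTIP on the plus strand at chr19:34481508-34481757, and AMOTL2 on the minus strand at chr3:134374448-134374697.
CTGF: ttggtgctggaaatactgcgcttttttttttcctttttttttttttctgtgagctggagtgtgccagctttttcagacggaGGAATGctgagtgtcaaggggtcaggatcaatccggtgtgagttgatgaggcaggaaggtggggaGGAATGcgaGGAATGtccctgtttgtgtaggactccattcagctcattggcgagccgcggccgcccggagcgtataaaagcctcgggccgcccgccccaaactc
ANKRD1: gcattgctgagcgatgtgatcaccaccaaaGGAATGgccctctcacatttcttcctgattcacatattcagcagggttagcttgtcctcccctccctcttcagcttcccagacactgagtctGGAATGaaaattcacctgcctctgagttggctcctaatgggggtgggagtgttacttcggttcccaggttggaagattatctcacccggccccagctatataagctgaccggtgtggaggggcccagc
WTIP: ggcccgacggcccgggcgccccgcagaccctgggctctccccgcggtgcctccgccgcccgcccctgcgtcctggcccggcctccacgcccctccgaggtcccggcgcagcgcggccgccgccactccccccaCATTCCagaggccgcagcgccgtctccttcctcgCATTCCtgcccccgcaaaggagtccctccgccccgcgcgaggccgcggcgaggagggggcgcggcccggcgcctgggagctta
AMOTL2: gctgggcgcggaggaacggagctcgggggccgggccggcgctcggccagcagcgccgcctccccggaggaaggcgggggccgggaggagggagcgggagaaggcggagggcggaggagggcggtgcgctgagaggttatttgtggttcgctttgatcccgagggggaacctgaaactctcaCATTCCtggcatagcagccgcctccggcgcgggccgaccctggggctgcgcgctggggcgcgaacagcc

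The core occurred 3 times before CTGF, 2 times before ANKRD1 and 2 times before WTIP. It occurred once in the AMOTL2 stretch shown and once before YAP1. A copy began 169, 104 and 95 bases before the CTGF start, 220 and 128 before that of ANKRD1, and 117 and 83 before that of WTIP. Of the 10 genes, 7 had an entry. CYR61, TEAD1 and TEAD4 had none, so whether the core stands before these genes was not examined. There were 9 entries in all because AMOTL2 and WWTR1 have 2 each. The second AMOTL2 entry, both WWTR1 entries and LATS2 held no copy. Among 35116 stretches of the same length in the table, 11.9% held at least 1 copy, 0.94% at least 2 and 0.0826% at least 3. The AP-1 core TGACTCA, searched on both strands, was in none of the 9 entries and in 4.2% of all. Genes with the core several times stood on opposite sides in the knockdown: ANKRD1 and WTIP were higher and CTGF was lower, as described next. A match of letters is a description and not evidence of binding.

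SCD itself was at 137 TPM in the Huh7 knockdown and 1755 TPM in the Huh7 control, and at 178 TPM in the PLC/PRF/5 knockdown and 1111 TPM in the PLC/PRF/5 control. TPM, a transcript abundance, is set per transcript length and per library, so sequencing depth is unknown and no counting interval was computed. Of 16 hepatocyte markers, 16 reached 1 TPM in both Huh7 libraries and 15 in both PLC/PRF/5 libraries, TTR being the exception. ALB was at 10479 TPM in the Huh7 knockdown and 6498 TPM in the Huh7 control, and in PLC/PRF/5 at 41.5 TPM in the knockdown and 69.3 TPM in the control. AFP went the other way from ALB in Huh7, at 10302 TPM in the knockdown and 15421 TPM in the control. In PLC/PRF/5 AFP was at 6.96 and 17.2 TPM. The 16 hepatocyte markers summed to 36701 TPM in the Huh7 knockdown and 38818 TPM in the Huh7 control. In PLC/PRF/5 the sums were 9341 TPM in the knockdown and 11741 TPM in the control. The endothelial markers KDR, TEK and CLDN5 and the fibroblast marker ACTA2 were listed at 0 in all 4 libraries. Markers of fibroblasts, cells in which YAP targets are also abundant, summed over 9 genes to 79.9 TPM in the Huh7 knockdown and 62.0 TPM in the Huh7 control, with 5 at 1 TPM or more in each. LUM alone was higher there among those 5, at 60.0 TPM in the Huh7 knockdown and 10.8 TPM in the Huh7 control, while COL1A1, COL1A2, PDGFRA and PDGFRB were lower (COL1A2 at 9.63 TPM in the knockdown and 30.9 TPM in the control). The 9 markers summed to 2.66 and 3.78 TPM in the knockdown and control of PLC/PRF/5. The 6 endothelial markers summed to at most 3.40 TPM and 6 leukocyte markers to between 11.7 and 27.4 TPM over the libraries. The part of these markers in the values below was not tested. In bulk RNA, a change in the share of cells that express a gene and a change in its RNA per cell cannot be told apart.

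Among the secreted targets of YAP, CYR61 was higher and CTGF lower after knockdown, in Huh7 and in PLC/PRF/5 alike. CYR61 (now CCN1) and CTGF (now CCN2) are related matrix-associated proteins of the CCN family that bind integrins and promote adhesion, and are the most used readouts of YAP activity. CYR61 was at 184 TPM in the Huh7 knockdown and 51.3 TPM in the Huh7 control, and at 87.3 TPM in the PLC/PRF/5 knockdown and 36.5 TPM in the PLC/PRF/5 control. Its ratio of knockdown to control was 3.58 in Huh7 and 2.39 in PLC/PRF/5. Both knockdown values stood above both control values.

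CTGF was at 166 TPM in the Huh7 knockdown and 232 TPM in the Huh7 control, and at 42.6 TPM in the PLC/PRF/5 knockdown and 75.1 TPM in the PLC/PRF/5 control. Its ratio was 0.716 in Huh7 and 0.567 in PLC/PRF/5. Within each line the knockdown was lower, while the Huh7 knockdown still stood above both PLC/PRF/5 libraries. The balance of the 2 proteins' transcripts differed accordingly. For each CYR61 transcript there were 0.905 CTGF transcripts in the Huh7 knockdown and 4.53 in the Huh7 control. In PLC/PRF/5 there were 0.488 in the knockdown and 2.06 in the control. CTGF was the most abundant of the 10 genes in both controls and the third in both knockdown libraries, behind CYR61 in each.

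ANKRD1, a nuclear ankyrin repeat protein, was higher in the knockdown of both lines but at very unlike levels. It was at 235 TPM in the Huh7 knockdown and 55.7 TPM in the Huh7 control, a ratio of 4.22. In PLC/PRF/5 it was at 3.82 TPM in the knockdown and 1.88 TPM in the control, a ratio of 2.03. It was the most abundant of the 10 genes in the Huh7 knockdown and the least abundant in both PLC/PRF/5 libraries.

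**Figure D1:**
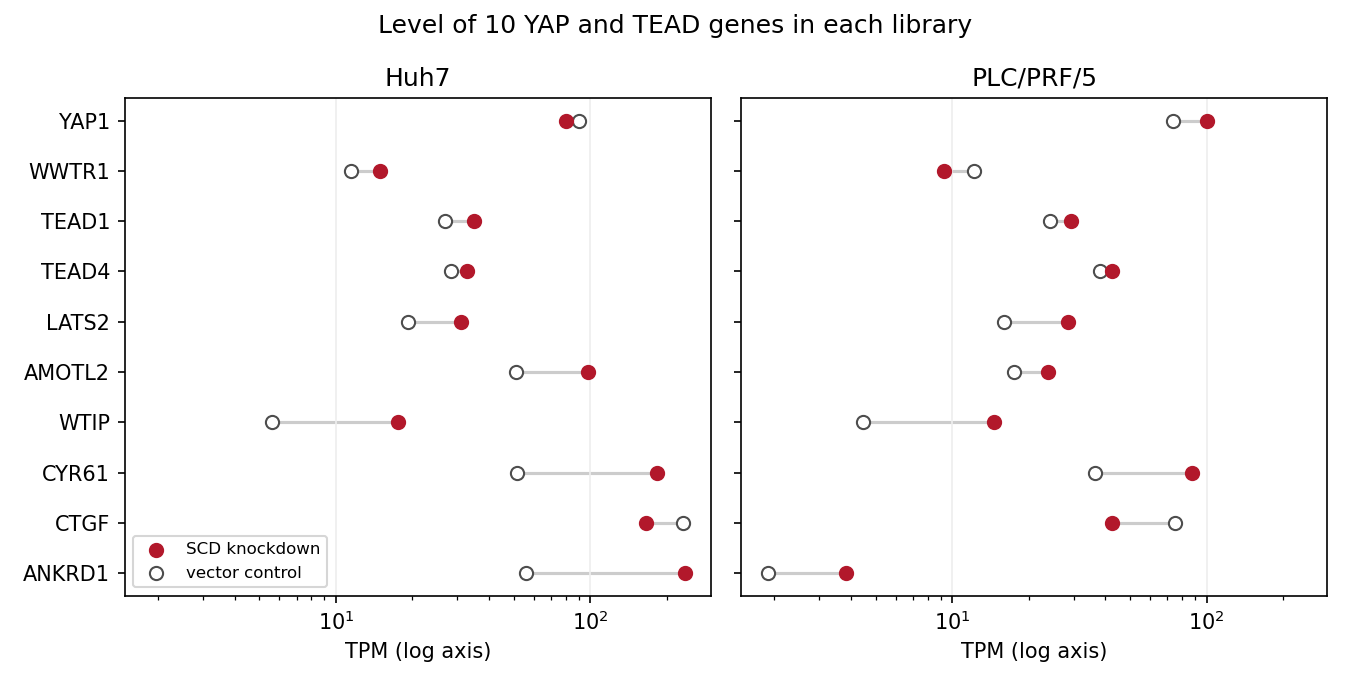
Level of each gene in TPM on a log axis, in Huh7 (left) and PLC/PRF/5 (right), with filled points for the SCD knockdown library and open points for the vector control library, 1 library per point. CYR61, ANKRD1 and WTIP lie to the right of their control in both lines and CTGF to its left, and ANKRD1 lies at 235 and 55.7 TPM in Huh7 but at 3.82 and 1.88 TPM in PLC/PRF/5.

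The targets that feed back on the pathway were higher in the knockdown libraries. LATS2, the kinase that inactivates YAP and TAZ, was at 31.2 TPM in the Huh7 knockdown and 19.2 TPM in the Huh7 control, and at 28.4 TPM in the PLC/PRF/5 knockdown and 16.0 TPM in the PLC/PRF/5 control. Both knockdown values again stood above both controls, with ratios of 1.62 and 1.77. AMOTL2, an angiomotin relative that binds YAP at cell junctions, was at 98.1 TPM in the Huh7 knockdown and 51.2 TPM in the Huh7 control. In PLC/PRF/5 it was at 23.8 TPM in the knockdown and 17.4 TPM in the control. Its ratios were 1.92 and 1.36, and both Huh7 libraries stood above both PLC/PRF/5 libraries.

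WTIP, an Ajuba family LIM domain protein (a family whose members bind LATS kinases and restrain them), had the smallest gap between the lines in its log2 difference (0.04). It was at 17.5 TPM in the Huh7 knockdown and 5.63 TPM in the Huh7 control, and at 14.6 TPM in the PLC/PRF/5 knockdown and 4.46 TPM in the PLC/PRF/5 control. The ratios were 3.11 and 3.28. WTIP was the least abundant of the 10 in the Huh7 control.

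The coactivators and the TEAD factors differed less between the arms. YAP1 was at 80.6 TPM in the Huh7 knockdown and 90.6 TPM in the Huh7 control, and at 101 TPM in the PLC/PRF/5 knockdown and 73.9 TPM in the PLC/PRF/5 control. It was thus lower in the knockdown of Huh7 and higher in that of PLC/PRF/5. WWTR1 went the other way in each line, at 14.9 TPM in the Huh7 knockdown and 11.5 TPM in the Huh7 control, and at 9.32 TPM in the PLC/PRF/5 knockdown and 12.2 TPM in the PLC/PRF/5 control. YAP1 outnumbered WWTR1 in every library. The ratio was 5.40 in the Huh7 knockdown and 7.91 in the Huh7 control, and 10.8 in the PLC/PRF/5 knockdown and 6.08 in the PLC/PRF/5 control. Added together, the 2 coactivators came to 95.5 TPM in the Huh7 knockdown and 102 TPM in the Huh7 control, and to 110 TPM in the PLC/PRF/5 knockdown and 86.1 TPM in the PLC/PRF/5 control.

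TEAD1 was at 34.8 TPM in the Huh7 knockdown and 26.8 TPM in the Huh7 control, and at 29.4 TPM in the PLC/PRF/5 knockdown and 24.2 TPM in the PLC/PRF/5 control. TEAD4 was at 32.8 TPM in the Huh7 knockdown and 28.4 TPM in the Huh7 control, and at 42.6 TPM in the PLC/PRF/5 knockdown and 38.2 TPM in the PLC/PRF/5 control. Both were slightly higher in each knockdown library, with ratios between 1.11 and 1.30. The other two family members, TEAD2 and TEAD3, are not among the 10, and TEAD2 was the most abundant of the family in all 4 libraries. TEAD2 was at 66.7 TPM in the Huh7 knockdown and 82.8 TPM in the Huh7 control, and at 46.1 TPM in the PLC/PRF/5 knockdown and 58.1 TPM in the PLC/PRF/5 control. Its share of all TEAD transcripts was 39.5% in the Huh7 knockdown and 51.0% in the Huh7 control. In PLC/PRF/5 its share was 31.2% in the knockdown and 40.3% in the control. The family's sum was close between arms, at 169 TPM in the Huh7 knockdown and 162 TPM in the Huh7 control, and at 148 TPM in the PLC/PRF/5 knockdown and 144 TPM in the PLC/PRF/5 control.

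**Figure D2:**
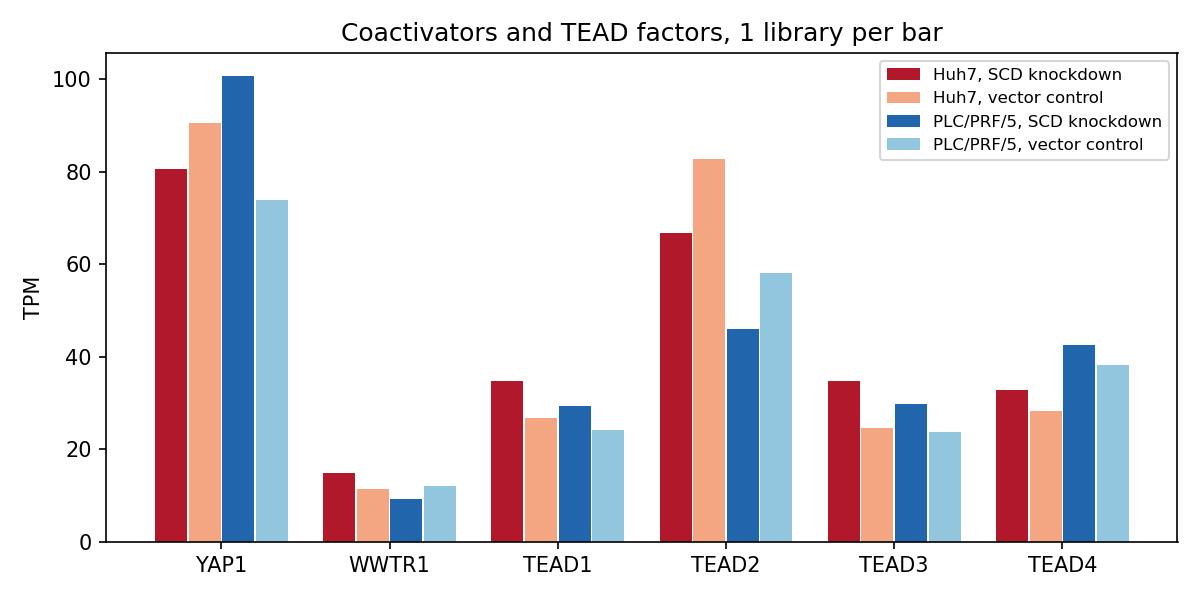
Level in TPM of the coactivators YAP1 and WWTR1 and of the 4 TEAD genes, with 1 bar per library from 0. YAP1 is between 73.9 and 101 TPM and WWTR1 between 9.32 and 14.9 TPM, and TEAD2 is the TEAD gene with the lower bar in the knockdown of both lines.

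For comparison across genes the difference was put on a log2 scale after adding 1 TPM, which understates the change of low genes, and a gene was counted at a 2-fold difference on that scale. Each arm of a line is a single library, which makes this a rule of size without a replicate check. In Huh7, 3 of the 10 genes were at least 2-fold higher (ANKRD1 at 2.06, CYR61 at 1.82 and WTIP at 1.48 on the log2 scale) and 0 at least 2-fold lower. Of all 13485 genes considered there, with 1 TPM or more in either library, 3.10% were 2-fold higher and 1.54% 2-fold lower. In PLC/PRF/5, 2 of the 10 were at least 2-fold higher (WTIP at 1.52 and CYR61 at 1.24) and 0 at least 2-fold lower, where 1.72% of 13057 genes were higher and 1.11% lower. ANKRD1, at 0.74 there, was below the rule because its levels are near the added 1 TPM. CYR61 and WTIP met it in both lines, as did 0.431% of 12064 genes considered in both. Since these values chose the genes, nothing is read from the shares.

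The remaining log2 differences were smaller. AMOTL2 was at 0.92 in Huh7 and 0.43 in PLC/PRF/5, LATS2 at 0.67 and 0.79, and CTGF at -0.48 and -0.80. TEAD1 was at 0.37 and 0.27, TEAD4 at 0.20 and 0.15, YAP1 at -0.17 and 0.44, and WWTR1 at 0.35 and -0.35. The sign was positive in both lines for 7 of the 10 genes, negative in both for 1 and opposite for 2, beside 46.5%, 22.4% and 31.0% of all genes. The median of the 10 was 0.52 in Huh7 and 0.43 in PLC/PRF/5, and that of all genes 0.08 and 0.10. Median-ratio scaling of the libraries shifted log2 ratios by -0.08 in Huh7 and -0.11 in PLC/PRF/5, less for low genes because of the added 1 TPM, and none of the 10 changed sign in either line. TEAD4 was then at 0.12 in Huh7 and only 0.044 in PLC/PRF/5. With that scaling the share of 2-fold genes that were higher was 58.8% in Huh7 (66.9% without it) and 45.5% in PLC/PRF/5 (60.8% without it).

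**Figure D3:**
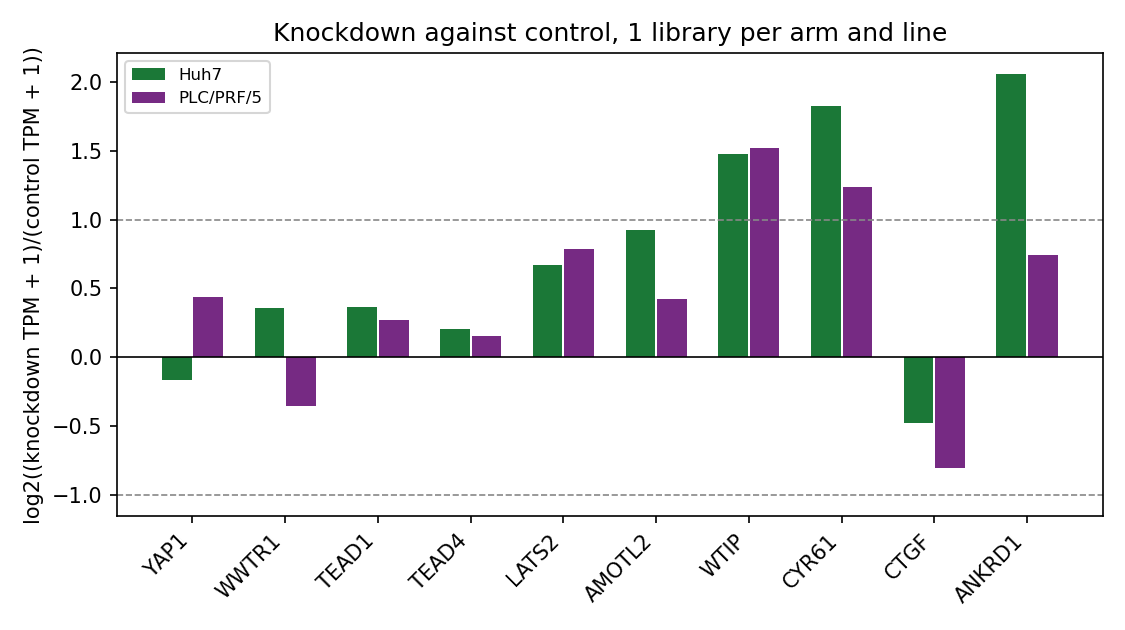
Log2 ratio of knockdown to control after adding 1 TPM, for each gene in Huh7 and PLC/PRF/5, 1 library per arm and line, with dashed lines at the 2-fold rule. WTIP and CYR61 exceed the upper line in both lines and ANKRD1 in Huh7, and YAP1 and WWTR1 have opposite signs in the 2 lines.

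The lines were compared with each other by the cell line term of a limma fit on log2(TPM + 1) across 13813 genes, a contrast that was not used to choose the 10 genes. It takes the 2 arms of a line as its repeats. A small p says that the line difference was large beside its standard error. That error combines the disagreement of the arms with a variance borrowed from other genes, and carries no spread between cultures. All p-values here are two-sided and Benjamini-Hochberg adjusted over all genes of the fit. Of the 10 genes, 4 were higher in Huh7 than in PLC/PRF/5, 1 was lower and 5 did not pass, beside 28.3% of all genes higher in Huh7 and 31.5% lower. In either direction 5 of the 10 passed, beside 59.8% of all genes, a share near that background.

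ANKRD1 differed most between the lines, by 4.96 on the log2 scale with a standard error of 0.33 (adjusted p = 6.7e-04). It was 61.4-fold higher in Huh7 in the knockdown arm and 29.6-fold higher in the control arm. CTGF was higher in Huh7 by 1.78 with a standard error of 0.12 (adjusted p = 6.3e-04), 3.90-fold in the knockdown arm and 3.09-fold in the control arm. AMOTL2 was higher by 1.75 with a standard error of 0.16 (adjusted p = 0.00129), 4.12-fold and 2.94-fold in the same arms. For all 3 the ratio of Huh7 to PLC/PRF/5 was larger in the knockdown arm. CYR61 was higher by 0.77 with a standard error of 0.16 (adjusted p = 0.0138). Its ratio of Huh7 to PLC/PRF/5 was 2.11 in the knockdown arm and 1.41 in the control arm, and the call was lost without the arm term (adjusted p = 0.412, with values between 0.0103 and 0.412 over the alternatives).

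TEAD4 was lower in Huh7 by 0.39 on the log2 scale, with a standard error of 0.11 (adjusted p = 0.0332). Its call did not hold with median-ratio scaling (adjusted p = 0.0629), and its adjusted p lay between 0.0317 and 0.0954 over the alternatives. For YAP1 the line difference was -0.01 with a standard error of 0.17 (adjusted p = 0.949), and for WWTR1 0.27 with a standard error of 0.22 (adjusted p = 0.332). LATS2 differed by 0.19 (standard error 0.13, adjusted p = 0.253), TEAD1 by 0.19 (standard error 0.12, adjusted p = 0.224) and WTIP by 0.26 (standard error 0.16, adjusted p = 0.212). So the coactivators, TEAD1, LATS2 and WTIP did not pass between the lines, which does not show that their levels are equal. Without a filter on low values no gene of the whole table passed.

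Further targets of YAP and TAZ mostly had higher values in the knockdown libraries. The list was the rest of a published 22-gene target signature, 17 genes besides the 5 already described. Of these, 14 were considered in each line and 11 in both. In Huh7, 13 of 14 had a higher and 1 a lower value in the knockdown, beside 60.2% of all genes higher and 39.7% lower, and the median log2 difference was 0.82 beside 0.08 for all genes. The numbers for PLC/PRF/5 were 12 and 2 of 14, beside 63.4% of all genes higher and 36.5% lower, and the median was 0.56 beside 0.10. With median-ratio scaling 12 of 14 were higher in each line. At the 2-fold rule 4 of 14 were higher in Huh7, beside 3.10% of all genes. Of the 14 in PLC/PRF/5, 2 were higher and 1 lower, beside 1.72% and 1.11%. With median-ratio scaling 0 were higher and 2 lower by this rule in PLC/PRF/5, and F3 fell below the rule in Huh7 (0.94).

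MYOF, a ferlin of membrane repair, was at 15.2 TPM in the Huh7 knockdown and 5.54 TPM in the Huh7 control, and at 30.5 TPM in the PLC/PRF/5 knockdown and 14.0 TPM in the PLC/PRF/5 control. NUAK2, a stress kinase related to AMPK, was at 14.5 TPM in the Huh7 knockdown and 6.07 TPM in the Huh7 control, and at 23.1 TPM in the PLC/PRF/5 knockdown and 10.5 TPM in the PLC/PRF/5 control. F3, which encodes tissue factor, had log2 differences of 1.02 and 0.90, and the stress-response gene GADD45A of 0.95 and 0.93. These 4 had the largest mean difference over the lines. AXL, a receptor tyrosine kinase chosen after its values were seen, was at 7.04 TPM in the PLC/PRF/5 knockdown and 14.8 TPM in the PLC/PRF/5 control, and under 1 TPM in Huh7.

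IGFBP3, which binds insulin-like growth factors, stood apart and was likewise chosen after its values were seen. It was at 40.5 TPM in the Huh7 knockdown and 8.73 TPM in the Huh7 control, but at 20.2 TPM in the PLC/PRF/5 knockdown and 81.4 TPM in the PLC/PRF/5 control. NT5E, the ecto-enzyme CD73, was the other gene of the list with opposite signs, at -0.39 in Huh7 and 0.79 in PLC/PRF/5.

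The Hippo kinases and their scaffolds had differences of both signs. Of 16 genes, 16 were considered in Huh7, where 9 were higher and 7 lower, and 15 in PLC/PRF/5, where 12 were higher and 3 lower. Of all genes, 60.2% were higher in Huh7 and 63.4% in PLC/PRF/5. The medians were 0.10 and 0.21, close to the 0.08 and 0.10 of all genes. With median-ratio scaling, 9 rather than 12 were higher in PLC/PRF/5. WWC1 (KIBRA), a scaffold that activates LATS kinases, was at 53.4 TPM in the Huh7 knockdown and 19.5 TPM in the Huh7 control, and at 71.3 TPM in the PLC/PRF/5 knockdown and 52.3 TPM in the PLC/PRF/5 control. It was the 1 gene of the list past the 2-fold rule. RASSF1, a scaffold of the STK kinases, had log2 differences of 0.32 and 0.85, TAOK3, an upstream kinase, of 0.64 and 0.24, and WWC2 of 0.38 and 0.44.

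Of the 6 further TEAD and Vestigial-like genes, 3 were considered, and VGLL1, VGLL2 and VGLL3 were under 1 TPM in all libraries. TEAD3 had log2 differences of 0.49 and 0.32, VGLL4, a cofactor that competes with YAP for TEAD, of 0.12 and 0.26, and TEAD2 of -0.31 and -0.33. Among 7 relatives of AMOTL2 and WTIP, 7 were higher in Huh7, with a median of 0.77, beside 60.2% and 0.08 for all genes. Of the 6 considered in PLC/PRF/5, 4 were higher, with a median of 0.18, beside 63.4% and 0.10. With median-ratio scaling the counts stayed at 7 and 4, and the medians were 0.69 and 0.08. ZYX, which encodes the focal adhesion protein zyxin, was at 343 TPM in the Huh7 knockdown and 201 TPM in the Huh7 control, and at 111 TPM in the PLC/PRF/5 knockdown and 70.6 TPM in the PLC/PRF/5 control. AJUBA, the founding member of WTIP's family, had log2 differences of 0.78 and 0.33, AMOT of 0.90 and 0.12, and LIMD1 of 0.49 and -0.06.

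The relatives of CYR61, CTGF and ANKRD1 were mostly under 1 TPM. Of 6, NOV, WISP1, WISP2 and ANKRD2 were under 1 TPM in all libraries. WISP3, a CCN family member chosen after its values were seen, was at 10.8 TPM in the Huh7 knockdown and 5.83 TPM in the Huh7 control and at no more than 0.05 TPM in PLC/PRF/5. ANKRD23 had log2 differences of 0.32 and 0.47.

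**Figure D4:**
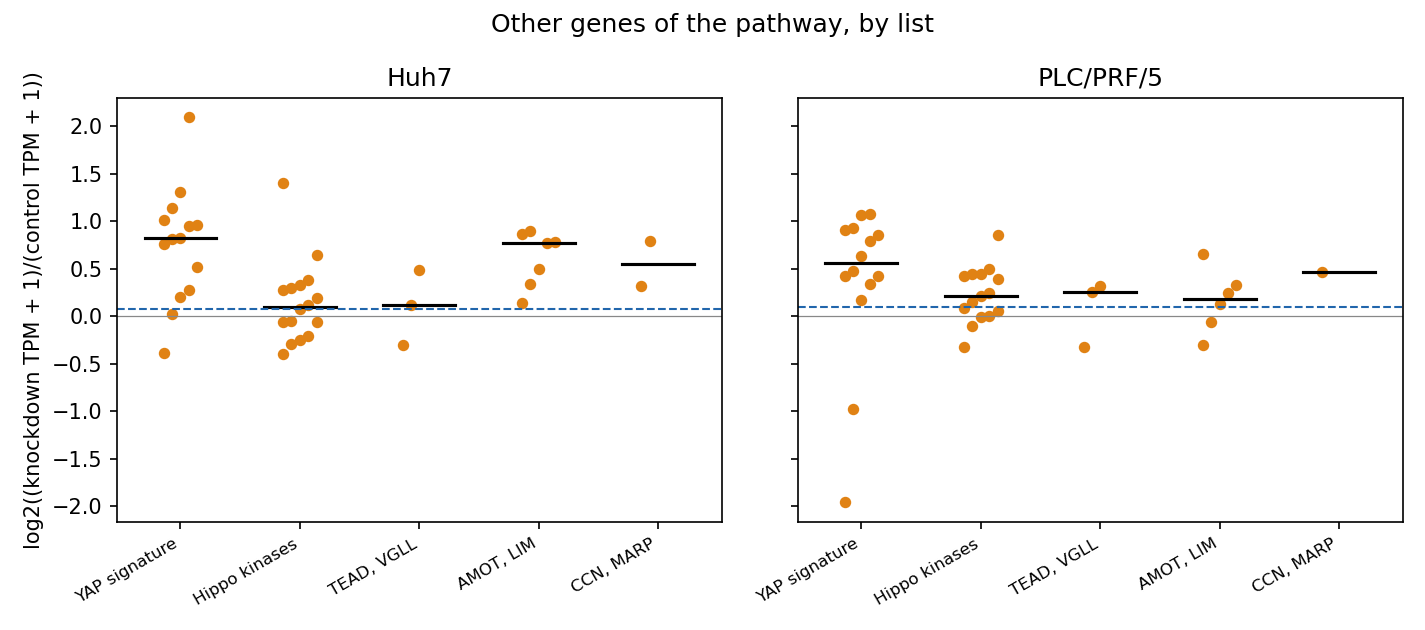
Log2 ratio of knockdown to control after adding 1 TPM for the other pathway genes considered in Huh7 (left) and PLC/PRF/5 (right), by list, with a black bar at each list's median and a dashed line at the median of all genes. The YAP signature genes have medians of 0.82 and 0.56, and the Hippo kinase list 0.10 and 0.21.

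For the knockdown common to both lines these other genes were tested in the same limma fit, with cell line as a block. Of 45 in the fit, 0 passed, with the lowest adjusted p at 0.129 (GADD45A, MYOF, NUAK2 and ZYX, each higher in both lines). At an unadjusted p under 0.05, 17 of the 45 were higher and 1 lower, 9 of them higher among the 17 signature genes. Over all 13813 genes 0.00% passed as higher and 0.00724% (1 gene) as lower after adjustment, and 12.7% as higher and 5.24% as lower at an unadjusted p under 0.05. The 17 became 11 with median-ratio scaling, 10 without a filter and 1 without the cell line block. The mean log2 difference over n = 2 lines was 0.94 for GADD45A, 1.19 for MYOF, 1.10 for NUAK2 and 0.71 for ZYX. Their standard errors in the fit were 0.10, 0.15, 0.15 and 0.09. These errors borrow variance from other genes and are not the spread of the 2 lines alone.

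**Figure D5:**
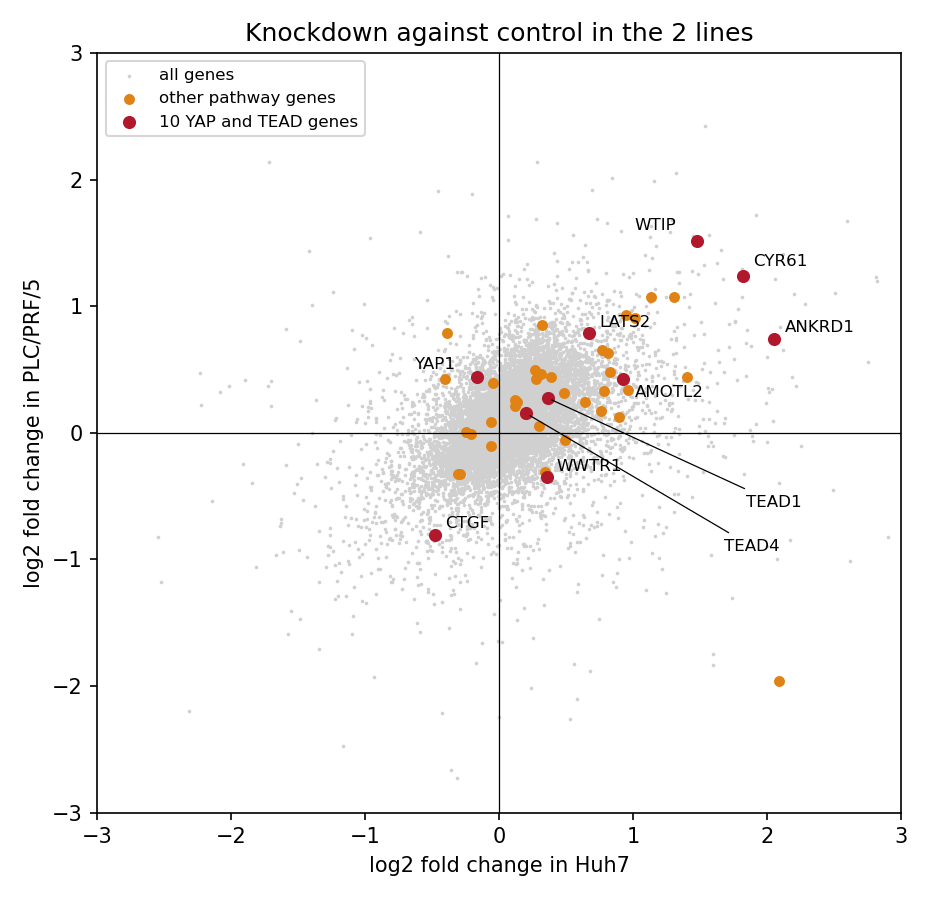
Log2 ratio of knockdown to control in Huh7 (horizontal axis) against PLC/PRF/5 (vertical axis), with each point a gene, grey for genes considered in both lines, orange for other pathway genes and red for the 10 genes, and 10 genes of 12064 outside the axes. WTIP, CYR61 and ANKRD1 lie far out in the upper right and CTGF in the lower left. The orange point farthest out at the lower right is IGFBP3 at 2.09 and -1.96.

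Genes whose pair of log2 differences lay nearest to those of the 3 leading targets were sought among 8526 to 8527 genes with at least 10 TPM in each line. Nearest to CYR61 were DUSP8 (1.82 in Huh7 and 1.07 in PLC/PRF/5), ATF3 (1.63 and 1.34) and C14orf105 (2.06 and 1.21), at distances of 0.17, 0.22 and 0.24 on the log2 scale. Nearest to CTGF were ACVR1B (-0.49 and -0.83), DNMT3B (-0.47 and -0.84) and TOP2A (-0.52 and -0.76), at distances of 0.03, 0.03 and 0.06. Nearest to ANKRD1 were SDPR (2.09 and 0.84), LTB (1.85 and 0.81) and IL18 (2.25 and 0.86), at distances of 0.10, 0.22 and 0.23. ANKRD1 itself did not reach 10 TPM in PLC/PRF/5. The added 1 TPM lowers its log2 difference there to 0.74, for a ratio of 2.03. The ratios of SDPR, LTB and IL18 in PLC/PRF/5 were between 1.795 and 1.829. The likeness rests on 2 differences per gene, between 4 libraries.

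Little of the sequence of the 10 genes is shared with other genes. At most 5.67% of the 30-base words in the longest GENCODE 29 transcript of each of the 10 genes also occurred in another gene, with WTIP the highest. Exons of CTGF, YAP1 and WWTR1 overlap a gene on the opposite strand, and those of AMOTL2 overlap the ribosomal protein pseudogene RPL39P5 on the same strand. The strand setting of the counting is not given in the sources used here, so reads of opposite-strand partners may be counted with their genes, and no strand setting separates RPL39P5 from AMOTL2. WWTR1-AS1, the partner of WWTR1, was at 0.38 TPM in the Huh7 knockdown and 0.08 TPM in the Huh7 control, and in PLC/PRF/5 at 0.09 TPM in the knockdown and 0.18 TPM in the control.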

How the data were processed

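Total RNA from 4 cultures was sequenced, 1 per group, with groups taken from the sample titles. The authors deposited TPM per gene symbol, rounded to 2 decimals. Per the submitters' processing notes, cutadapt, RSEM 1.2.21 and hg19 were used; the sources used here do not give the aligner, annotation or strand setting. TPM keeps no depth, and because all libraries share a total, a change in abundant transcripts moves the rest.

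Log2 differences used a pseudocount of 1 TPM, with genes considered at 1 TPM or more in either library of a line. The across-line fit used limma 3.58.1 (R 4.3.3) with log2(TPM + 1) as input, terms for cell line and arm, a variance trend, and 13813 genes at 1 TPM or more in at least 2 libraries. It has 1 residual and 3.71 prior degrees of freedom, so its standard errors borrow variance from other genes. The p-values set a difference against such an error and carry no spread between cultures. The threshold was an adjusted p of 0.05. The fit was tested on simulated data. Cell line pairs the samples. The 10 genes, lists and tests were chosen with earlier results of these data known. Genes were named if among the 10, among the 4 of a list with the largest mean difference, or the 3 nearest to CYR61, CTGF or ANKRD1. Pathway genes outside these groups, such as others listed for opposite signs in the 2 lines, were chosen after their values were seen. Other settings tried were a pseudocount of 0.1 or 5, filtering at TPM 5 or not at all, median-ratio scaling, no variance trend, and dropping the cell line or arm term. RefSeq promoters (GRCh38.p14) and GENCODE 29 transcripts gave sequence properties; Python 3.11.15 and matplotlib 3.10.9 drew the plots.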

Additional observations from a re-analysis of the deposited data

Results flagged for a closer look

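Several genes had opposite signs in the 2 lines, and whether the lines differ was not tested, because there is 1 library per group. Opposite signs were found for 2 of the 10 genes and 8 of 36 other pathway genes considered in both lines. Of all 12064 genes considered in both, 31.0% had opposite signs, so this is not a trait of the pathway. IGFBP3 differed most, at a log2 difference of 2.09 in Huh7 and -1.96 in PLC/PRF/5. YAP1 was at -0.17 in Huh7 and 0.44 in PLC/PRF/5, and WWTR1 at 0.35 and -0.35. NT5E was at -0.39 and 0.79, and FRMD6, a FERM protein of the Hippo pathway, at -0.40 and 0.43. MAP4K4, an upstream kinase, was at -0.047 and 0.39, and AMOTL1, a relative of AMOTL2, at 0.34 and -0.31. LIMD1 was at 0.49 and -0.060, the tumour suppressor NF2 at -0.058 and 0.085, and the kinase gene TAOK1 at -0.25 and 0.0043. MAP4K4, LIMD1, NF2 and TAOK1 have a value near 0 in at least 1 line. In PLC/PRF/5 the values of NF2 and TAOK1 turned negative with median-ratio scaling.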

How the results depend on the processing

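All 99 knockdown values of the 10 genes under the alternatives kept their sign, and the counts of 2-fold genes among the 10 were the same under each. The widest ranges were those of WTIP in PLC/PRF/5 (1.05 to 1.69) and ANKRD1 in PLC/PRF/5 (0.36 to 0.99). Of 70 line differences, 60 kept their side of the threshold, and 1, that of YAP1, turned positive (0.066 with median-ratio scaling, against -0.013 as reported). Without a filter 0 genes passed between the lines or for the knockdown, so 0 of the 10 were called; the 4 genes higher in Huh7 stayed 4 under the other alternatives except dropping the arm term, which left 3. The 1 member lower in Huh7 became 0 with median-ratio scaling, without the variance trend and without the arm term. For the knockdown across lines, 1 gene of all passed, against 2 with a pseudocount of 0.1 and 0 with a pseudocount of 5, without the variance trend and without the cell line block, the pairing of this design; pathway calls stayed at 0 throughout. With a pseudocount of 0.1, 695 genes were 2-fold higher and 370 lower in Huh7, and 480 and 248 in PLC/PRF/5; with 5 these were 155 and 92, and 68 and 55 (418 and 207, and 225 and 145, as reported). Of the other pathway genes, 2 were 2-fold lower in PLC/PRF/5 with a pseudocount of 0.1 or scaling (1 as reported), 2 higher in Huh7 with a pseudocount of 5 (5 as reported), and 0 higher in PLC/PRF/5 with a pseudocount of 5 or scaling (2 as reported). The cause was not tested beyond the construction of each alternative. Depth is unknown.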
